A study of Sus scrofa with 8 samples.

Results

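A set of 8 genes of the cell division cycle were followed in the liver of 8 pigs: TOP2A, CCNB1, CDK1, RRM1, RRM2, PCNA, CCND1 and the cycle inhibitor CDKN2C. They were chosen by name, and every probe set whose array annotation carried only the symbol of 1 of them was taken, dim ones included. Of the 8 genes, 6 had such a probe set, 1 each, so the members were 6 of the 6765 genes with a probe set of a single symbol and 6 of the 23999 probe sets left after the array's own controls were set aside. CDK1 and CCND1 had no probe set of their own symbol in the annotation used here and were not analysed. The study set 4 Korean native pigs (KNP, 7 months old), an indigenous breed, against 4 Yorkshire pigs (YS, 6 months old), a commercial breed, with 1 Affymetrix porcine array per animal and RNA from the tip of the largest lobe. The labels say that all 8 were kept under the same conditions and name no treatment, and age differs with breed, so age and breed cannot be told apart. The comparison asks which genes differ in liver between the breeds.

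As background, a cell that divides first passes from G1 into S phase, when cyclin D with CDK4 or CDK6, and then CDK2, release the E2F factors from the RB protein, and CDKN2C, also called p18 or INK4C, blocks CDK4 and CDK6. In S phase the genome is copied, which takes deoxynucleotides made by ribonucleotide reductase (subunits RRM1 and RRM2) and the sliding clamp PCNA. In G2 and mitosis topoisomerase II alpha (TOP2A) untangles the copied strands and cyclin B1 (CCNB1) with CDK1 drives entry into division. Most hepatocytes of a grown liver rest outside the cycle and return to it after loss of tissue.

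All 6 member probe sets had a lower mean in KNP than in YS, against 51.1% of the 14399 probe sets tested. CDKN2C was 1 of 6 members called, and it fell in KNP by 1.89 on the log2 scale, to 53.1 ± 31.3 from 223 ± 54.1 (scaled intensity, SD, n = 4 per breed; limma adjusted p = 0.0444). TOP2A and RRM1 lay lower in every KNP animal than in any YS animal without passing the test, and CCNB1, RRM2 and PCNA overlapped between the breeds. The called direction, lower in KNP with an adjusted p under 0.05, held for 0.611% of all probe sets tested. All 4 KNP values lay below all 4 YS values in 3 of the 6 members, against 5.67% of all probe sets, and 5 of 6 members were lower at an unadjusted p under 0.05, against 8.06%. The median of the 6 differences was −0.86, and −0.64 for the 5 members without CDKN2C, beside −0.0086 over all probe sets tested. CDKN2C and CCNB1 were bright enough to be tested only through their YS values, where they are high. Both count in the 6 lower means, in the 5 of 6 and in the median of the 6 differences. CDKN2C also counts in the 3 of 6 and as the call, and CCNB1 in the median of the 5 members without CDKN2C. These counts describe genes that were chosen with earlier results of these data known.

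In whole liver, fewer cells of a type and less RNA per cell cannot be told apart. The arrays carried the markers of the labelled tissue: all 10 hepatocyte markers were tested, with a summed intensity of 360700 to 449500 in KNP and 622800 to 669500 in YS. All 10 had a lower mean in KNP and 8 were called lower, with a median difference of −0.67, beside the −0.64 of the 5 division genes, and the part of this shift in the members' differences was not tested. The summed markers of 7 other cell types overlapped between the breeds. The spiked controls had a geometric mean of 2747 to 4230.0 in KNP and 5167 to 7651 in YS, and the brightest probe set of an array 50730 to 60066 in KNP and 83646 to 95919 in YS. Both measures were lower on every KNP array, as was the hepatocyte sum, and their part in the differences was not tested. The actin control signal at the 3' end over that at the 5' end, a ratio that grows with shorter RNA, was 2.68 to 6.45 in KNP and 8.39 to 11.8 in YS (two-sided exact permutation p = 0.0286 for each of these measures, the smallest that 4 against 4 allow, n = 4 per breed). The same ratio for GAPDH overlapped, at 2.30 to 3.77 in KNP and 3.07 to 4.05 in YS (exact permutation p = 0.314). Over all probe sets 61 (0.424%) were called higher and 88 lower in KNP, 1.03% in all, and these were 10 and 4 after quantile normalization and 57 and 38 after median centring.

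**Figure D1:**
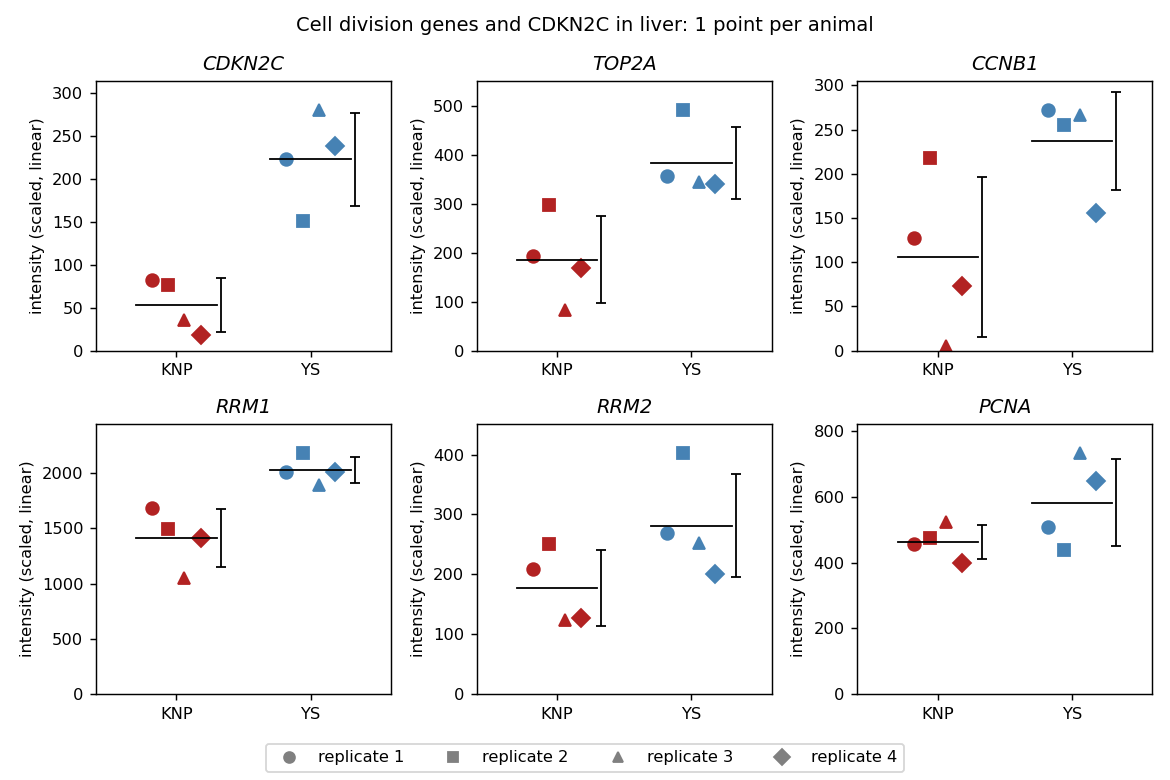
Scaled intensity (linear, from 0) of the 6 member probe sets, with 1 point per animal, shaped by replicate number, a line at the mean of each breed and a bar of 1 SD beside it (n = 4). All 4 KNP points lie below all 4 YS points for CDKN2C, TOP2A and RRM1, and the breeds overlap for CCNB1, RRM2 and PCNA.

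CDKN2C had intensities of 82.2, 76.7, 35.3 and 18.0 in KNP replicates 1 to 4. In YS replicates 1 to 4 it had 223, 151, 280.5 and 238. All KNP animals were low and all YS animals high, and the lowest YS value was 1.83 times the highest KNP value. The mean of YS was 4.20 times that of KNP on the deposited scale. On log2(intensity + 16), where 16 is a pseudocount that damps the noise of dim probe sets, the difference KNP minus YS was −1.89 (SE 0.38, 95% interval −2.72 to −1.06, limma adjusted p = 0.0444). Its probe set gave the dimmest signal of the 6: 41.8% of probe sets had a lower mean, where the lower 40% were left out of the test. The bound lay at 6.83 on this log2 scale, and CDKN2C averaged 7.87 in YS but 5.98 in KNP, below the bound in 4 of 4 KNP animals, so that it was tested only through its YS values. With no filter the call was lost (limma adjusted p = 0.0841). CCNB1 also passed only through YS, with 6.48 in KNP and 7.95 in YS. In KNP CDKN2C lay below the median of the array in 4 of 4 animals, between the percentiles 11.8 and 36.4 of the array. In YS CDKN2C lay above the median in 3 of 4 animals, between the percentiles 49.6 and 61.8.

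The size of the CDKN2C difference followed the pseudocount, from −2.25 with 1 and −2.16 with 4, over −1.64 with 32 and −1.31 with 64, to −0.96 and −0.63 with the largest pair tried. Its limma adjusted p was 0.0638 with 1 and 0.0567 with 4, where the call was lost, and lay between 0.0249 and 0.0381 from 32 upward. The direction was the same at each pseudocount, and larger pseudocounts gave smaller differences with smaller p. The call was also lost with any 1 of 7 of the 8 animals left out, with differences of −2.10 without KNP replicate 1, −1.79 without KNP replicate 3, −1.59 without KNP replicate 4, and −1.88, −2.05, −1.78 and −1.85 without YS replicates 1 to 4, at limma adjusted p between 0.0621 and 0.136. Only without KNP replicate 2 was it kept (−2.07, adjusted p = 0.0454).

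**Figure D2:**
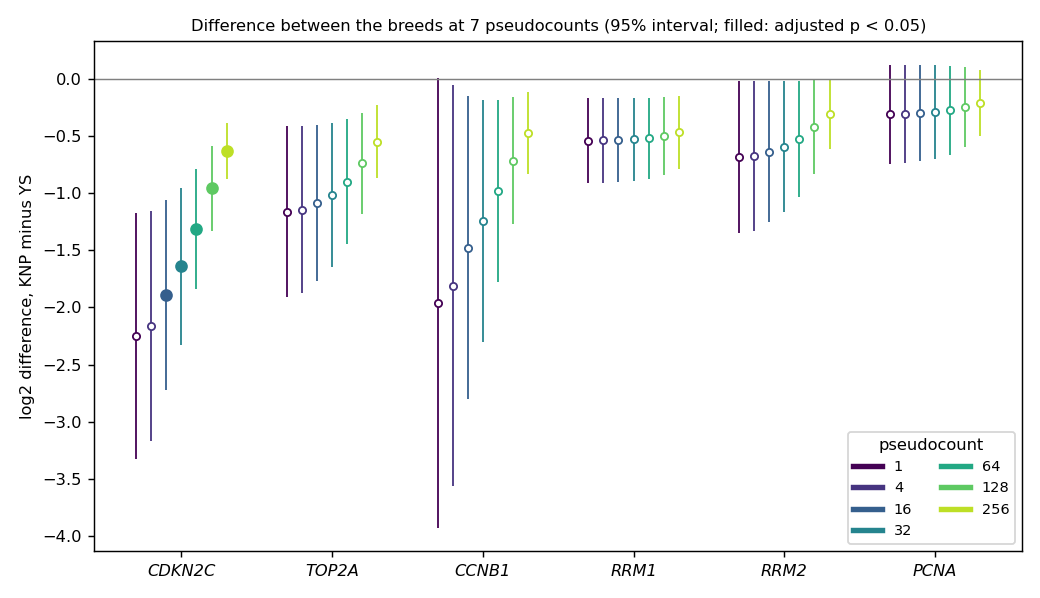
Difference KNP minus YS (log2) of the 6 members at 7 pseudocounts, with bars for the 95% interval of the limma fit and filled points where the adjusted p is under 0.05. Only CDKN2C has filled points, from a pseudocount of 16 upward, and the difference of RRM1, the brightest probe set of the 6, hardly moves.

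**Figure D3:**
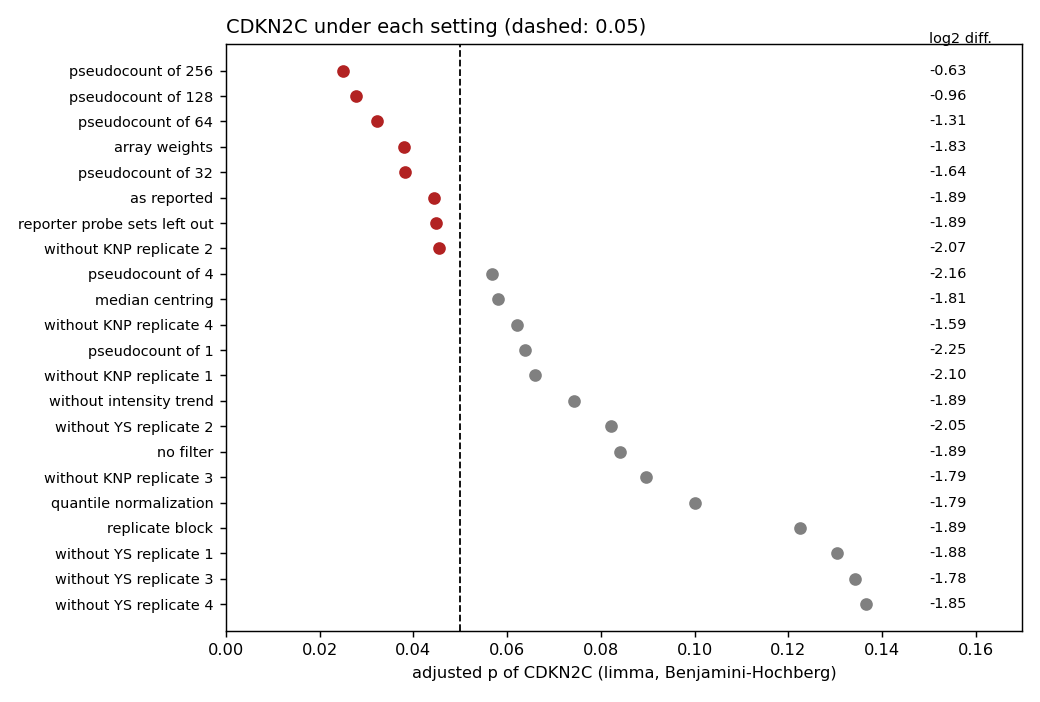
Limma adjusted p of CDKN2C (horizontal axis) as reported and under 21 other settings, with the log2 difference KNP minus YS printed at the right and a dashed line at 0.05. The point as reported (0.0444) and 7 settings lie left of the line, and 14 lie right of it, up to 0.136 without YS replicate 4.

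Of the enzymes that supply deoxynucleotides, RRM1, the large subunit of ribonucleotide reductase that holds the catalytic site, had the brightest probe set. It had 1683, 1492, 1052 and 1417 in KNP replicates 1 to 4. In YS replicates 1 to 4 it had 2014.5, 2181.8, 1896 and 2010.0. The breeds did not overlap, but the gap was narrow: the lowest YS value was 1.13 times the highest KNP value. The YS animals were close together, with an SD of 5.80% of their mean, against 18.7% in KNP. The difference was −0.54 (SE 0.17, 95% interval −0.90 to −0.17), which did not pass (limma adjusted p = 0.160, unadjusted p = 0.00820).

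RRM2, the small subunit that carries the radical and whose amount follows S phase, had 208, 251, 123 and 126 in KNP replicates 1 to 4. The YS animals had, in the order of their numbers, 269, 403, 252 and 200.5. KNP replicates 3 and 4 were below every YS animal, while KNP replicates 1 and 2 lay above YS replicate 4. The difference was −0.64 (SE 0.28, 95% interval −1.25 to −0.019, limma adjusted p = 0.314). RRM2B, the subunit used for DNA repair in resting cells, showed −0.13 (SE 0.22, adjusted p = 0.813), and −0.028 to −0.25 with 1 animal left out. The gap between it and the subunits of the cycling enzyme was not tested.

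PCNA, the clamp that holds DNA polymerase on its template, had 456, 475, 524 and 399 in KNP replicates 1 to 4. Values in YS were 509, 440.0, 734 and 648. Only KNP replicate 4 lay below every YS animal, and YS replicate 2 was the second lowest of the 8. The difference was −0.30 (SE 0.19, 95% interval −0.72 to 0.12, limma adjusted p = 0.499), the smallest among the members, and its interval is the only one of the 6 that holds 0. Without YS replicate 3 it was −0.18.

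Among the genes of G2 and mitosis, TOP2A had 193, 298, 83.3 and 169 in KNP replicates 1 to 4. YS replicates 1 to 4 had 357, 492, 345 and 340.2. Every YS animal was above every KNP animal, with KNP replicate 3 far below the rest and YS replicate 2 far above. The mean of YS was 2.06 times that of KNP (383 ± 72.7 against 186 ± 88.4, SD, n = 4 per breed). The difference of −1.08 (SE 0.31, 95% interval −1.77 to −0.40) did not pass (limma adjusted p = 0.130). It was −0.78 without KNP replicate 3 and −1.33 without KNP replicate 2, where the adjusted p was 0.0577.

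CCNB1 had 127, 218, 5.11 and 73.0 in KNP replicates 1 to 4. The values in YS were 272, 255.6, 266 and 155. The KNP animals spread over a wide range, from percentile 3.84 of the array in replicate 3 to one above YS replicate 4 in replicate 2. The SD was 85.0% of the mean in KNP and 23.3% in YS. The difference of −1.48 (SE 0.60, 95% interval −2.80 to −0.15, limma adjusted p = 0.282) did not pass, and it was −0.78 without KNP replicate 3. With pseudocounts of 1 and 64 it was −1.96 and −0.98.

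KNP replicates 3 and 4 were the lowest pair of their breed in every member other than PCNA, where KNP replicate 3 was the highest KNP animal. KNP replicate 3 was the lowest of the 8 animals in TOP2A, CCNB1, RRM1 and RRM2, and KNP replicate 4 the lowest in PCNA and CDKN2C. The mean of the 5 division genes, each as log2(intensity + 16) minus its mean over the 8 arrays, was −0.13, 0.16, −1.13 and −0.52 in KNP replicates 1 to 4. YS replicates 1 to 4 had 0.39, 0.56, 0.44 and 0.22. On this mean every KNP animal lay below every YS animal. KNP replicate 2 was close to YS replicate 4, and KNP replicates 3 and 4 were the lowest. CDKN2C, on the same scale, was −0.31, −0.39, −1.24 and −1.84 in KNP and 0.98, 0.45, 1.29 and 1.06 in YS, so that KNP replicate 2 stayed with its breed there. YS replicate 2 was the highest of the 8 animals in TOP2A, RRM1 and RRM2 and the lowest YS animal in CDKN2C and PCNA. The actin 3' to 5' ratio was 6.45 and 6.37 in KNP replicates 3 and 4 and 3.804 and 2.685 in replicates 1 and 2, and its part in these differences was not tested.

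**Figure D4:**
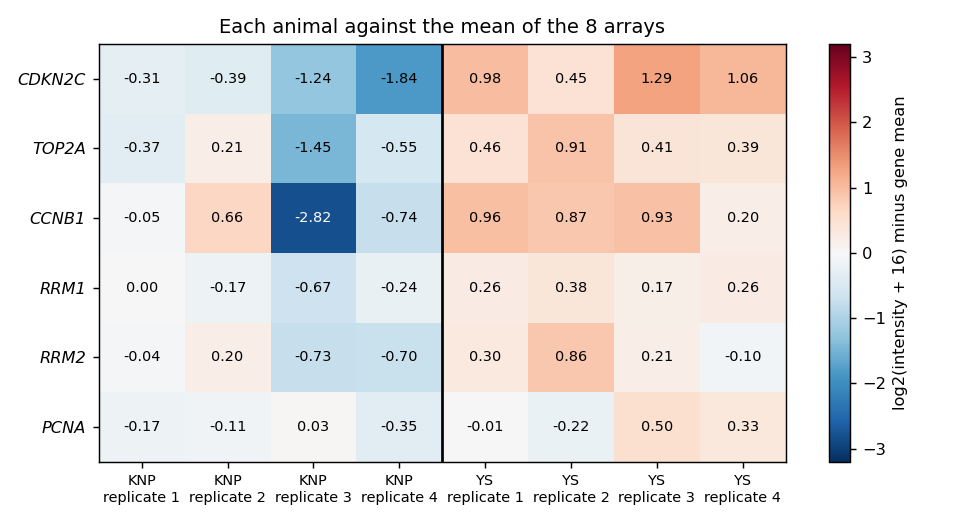
Each cell gives log2(intensity + 16) of a member (rows) in an animal (columns, KNP left of the line and YS right) minus the mean of that gene over the 8 arrays, blue below and red above it. KNP replicate 3 is the bluest column for TOP2A, CCNB1, RRM1 and RRM2, with −2.82 for CCNB1, and CDKN2C changes colour between the breeds with no exception.

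The rest of the pathway was read from 6 lists holding 124 genes, members included, of which 66 had a probe set of their own symbol and 46 were bright enough to be tested. Of these 46, CDKN2C was called lower, none was called higher and 45 did not pass. The median over the 40 tested genes that are no member was −0.10, and 25 had a lower and 15 a higher mean in KNP, where 51.1% of all probe sets had a lower mean. Of these 40, 2 were lower and 1 higher at an unadjusted p under 0.05, and none was called by limma. Of all 14399 probe sets tested, 8.06% were lower at that bound, and 2178 passed it in either direction.

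Of 7 inhibitors of cyclin-dependent kinases, 3 were tested. CDKN1A (p21), which p53 induces, showed −0.41 (SE 0.35, limma adjusted p = 0.613) and CDKN1B (p27), which holds resting cells out of the cycle, 0.090 (SE 0.18, adjusted p = 0.850; the brightest of 3 probe sets). The INK4 relatives of CDKN2C were dim: CDKN2B lay between 4.74 and 30.1 and CDKN2D between 22.4 and 156 over the 8 animals, both with overlap between the breeds. Only CDK2 was tested among the G1 cyclins and their kinases, and showed 0.32 (SE 0.24, limma adjusted p = 0.569). Its other tested probe set showed 0.23. RBL2 (p130), the RB relative of resting cells, showed 0.29 (adjusted p = 0.501), and TFDP2, a partner of E2F factors, −0.20 (adjusted p = 0.869). With 1 animal left out, CDKN1A was −0.078 without KNP replicate 1 and −0.18 without YS replicate 2, CDKN1B 0.23 without KNP replicate 1 and 0.024 without KNP replicate 2, and CDK2 0.16 without KNP replicate 2. RBL2 was 0.18 without KNP replicate 4, and TFDP2 was −0.69 without YS replicate 3 and 0.0005 without YS replicate 2.

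Of 18 tested genes for the licensing and the forks of replication 0 were called, 12 had a lower mean in KNP and the median was −0.083. RFC1, the large subunit of the loader that places PCNA on DNA, came nearest to a call. It had 370.0, 476, 447 and 454 in KNP replicates 1 to 4 and 999, 841, 654 and 682 in YS replicates 1 to 4, with no overlap. Its difference was −0.83 (SE 0.18, limma adjusted p = 0.0643), and it passed when the lower 60% of probe sets were left out (adjusted p = 0.0444). It did not pass under the other alternatives counted for the lists. There its limma adjusted p ran from 0.054 with weighted arrays to 0.16 without YS replicate 1. RFC5, a small subunit of the same loader, lay the other way, at 0.24 (SE 0.16, adjusted p = 0.522; 0.14 without KNP replicate 1). MCM2, part of the replicative helicase, showed −0.37 and GMNN (geminin), which blocks a repeat of licensing, −0.31, with adjusted p of 0.441 and 0.452. The other tested probe set of MCM2 showed −0.60.

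The 4 tested genes of nucleotide supply, RRM1, RRM2 and RRM2B among them, all had a lower mean in KNP, with a median of −0.53 and 0 called. NME1, which phosphorylates nucleoside diphosphates, had 590.7 to 1046 in KNP and 1074 to 1267 in YS, with no overlap (log2 −0.53, SE 0.19, limma adjusted p = 0.222). Of 18 tested genes of G2 and mitosis 0 were called, 12 had a lower and 6 a higher mean in KNP, and the median was −0.34. STMN1 (stathmin), which takes microtubules apart, showed −0.57, NUSAP1, a spindle protein, −0.71 and MAD2L1, a spindle checkpoint protein, −0.41, with adjusted p of 0.343, 0.385 and 0.332. NUSAP1 was at 671 and 606 in KNP replicates 1 and 2 and at 179 and 252 in replicates 3 and 4, against 552 to 687 in YS, so that the difference was −0.38 without KNP replicate 3, and its other tested probe set showed 0.11. BUB3, another checkpoint protein, lay the other way, at 1496 ± 270 in KNP and 1073 ± 99.3 in YS (SD, n = 4 per breed). The breeds overlapped in BUB3, and its difference was 0.46 (SE 0.17, limma adjusted p = 0.231).

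**Figure D5:**
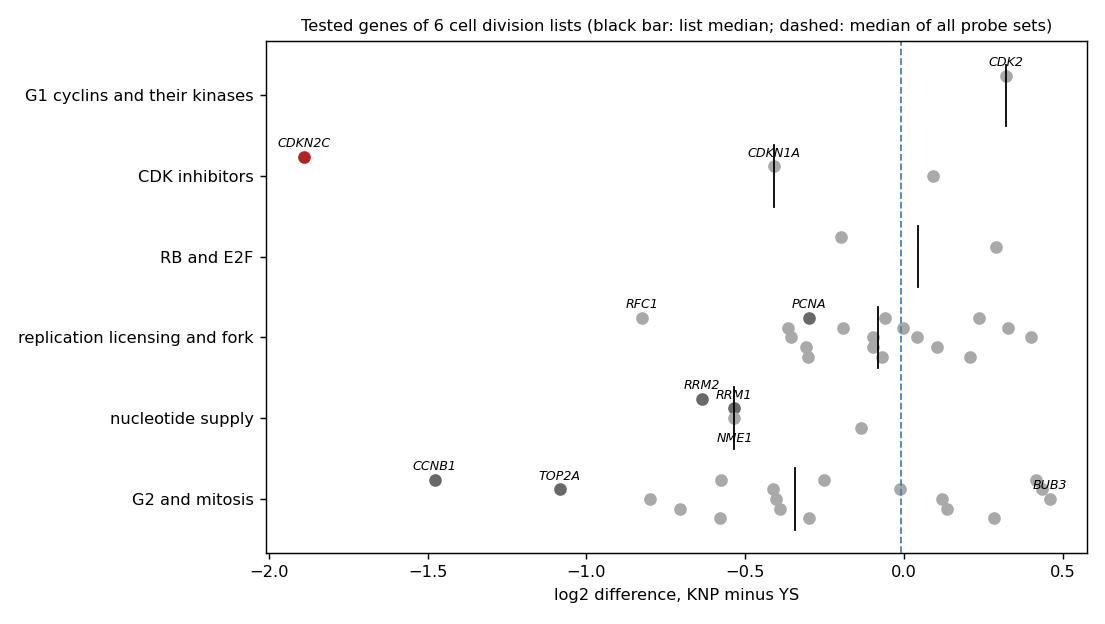
Difference KNP minus YS (log2) of the 46 tested genes of 6 lists, with 1 point per gene (its brightest probe set), red where called, dark for other members, a black bar at each list median and a dashed line at −0.0086, the median of all probe sets tested. CDKN2C is the only red point, and the list medians run from −0.53 for nucleotide supply to 0.32 for the single tested G1 gene.

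Likeness to a member was measured as the mean absolute difference, over the 8 arrays, between log2 values that were each centred on their own mean, among 7189 tested probe sets with 1 symbol. The difference between the breeds stayed in these values, so the probe sets picked share the direction of their member by construction. The 4 probe sets most like CDKN2C belonged to PDGFRL (0.387), HTT (0.396), ECHDC1 (0.453) and GSTA1 (0.453), where the median over all candidates was 0.964. PDGFRL, a PDGF receptor-like protein, was at 286, 416, 229 and 222 in KNP replicates 1 to 4 and 836, 579, 867 and 544 in YS replicates 1 to 4, and fell by 1.26 (SE 0.24, limma adjusted p = 0.0390). Its second probe set showed −0.43. The GSTA1 probe set, 1 of 3 of that glutathione transferase, at a mean intensity of 44520, near the top of the arrays, also fell by 1.43 (adjusted p = 0.0315). Its other probe sets showed −0.96 (mean intensity 47610) and −0.53 (mean intensity 72.05, too dim to be tested). HTT (huntingtin) and ECHDC1 showed −1.38 and −1.04 with adjusted p of 0.134 and 0.138. The call of PDGFRL was lost under 12 of 18 alternatives and that of GSTA1 under 8 of 18, with limma adjusted p up to 0.122 and 0.168, and neither turned its direction.

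The 4 most like TOP2A were probe sets of ACSL4 (0.152), SERPINA5 (0.164 and 0.204) and PCLAF (0.171), with a median over candidates of 0.633. PCLAF, a small protein that binds PCNA and was on none of the lists, had 228, 267, 46.6 and 141 in KNP replicates 1 to 4. In YS replicates 1 to 4 it had 271, 369.9, 267 and 282. Its lowest animal was KNP replicate 3 and its highest YS replicate 2, as in TOP2A, which follows from how it was picked. The difference was −0.95 (SE 0.40, limma adjusted p = 0.301). Its other probe set was dim, with a mean intensity of 23.1, and showed 0.30. ACSL4, which activates arachidonic acid, showed −1.16 (adjusted p = 0.0932) and the brighter SERPINA5 probe set −1.08 (adjusted p = 0.0820). The dimmer SERPINA5 probe set showed −0.77 (limma adjusted p = 0.249), with overlap between the breeds.

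Immune, blood and bile duct markers are given because cells of those kinds can divide in liver. The tested markers of T and NK cells had a median of 0.51 (5 of 5 higher in KNP), those of macrophages 0.49 (5 of 5 higher) and those of erythroid cells −0.56 (2 of 3 lower), with 0 called in each list. Bile duct markers had a median of 0.52 (2 of 2 higher), those of B and plasma cells 0.40 (1 of 2 higher), endothelial markers 0.16 (3 of 5 higher) and stellate cell and fibroblast markers 0.051 (3 of 5 higher), again with 0 called in each. The summed erythroid markers ran from 1651 to 3762 in KNP and from 2360.0 to 5562 in YS, and those of T and NK cells from 841 to 1977 and from 767 to 1371. CD4, PRF1 and CD3G, and the bile duct markers KRT19, SOX9 and CFTR, were too dim to be tested. So were MARCO of macrophages, CD79B of B cells, KLF1 of erythroid cells, KDR of endothelium and LUM of stellate cells and fibroblasts. The part of these cells in the differences of the division genes was not tested.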

How the data were processed

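Liver RNA of 8 pigs was read on 1 array each. The authors deposited a linear intensity for each probe set. Per the submitters' processing notes GCOS 1.3 was used, and how it formed the signal and took off background is not given in the sources read. The mean between the percentiles 2 and 98 was 499.8 on each array, so the deposited intensities carry a scaling per array. The array's own control probe sets (124 of 24123) were left out, but not 64 reporter probe sets, of which 2 were tested and 1 was called. Then 16 was added, log2 taken, and the lower 40% by mean left out. The array medians differed by 0.22 on this scale, so no further scaling was applied. KNP and YS were compared with limma 3.58.1 in R 4.3.3 (lmFit, eBayes with intensity trend, two-sided), with Benjamini-Hochberg adjustment over 14399 probe sets. Differences are KNP minus YS. The number of arrays limits the precision.

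Symbols came from the array annotation of GEO; of 10069 probe sets with 1 symbol, 9961 were found in the RefSeq table of Sscrofa11.1, all with the same symbol, the members included. Lists count each gene by its brightest probe set. Members, lists and tests were chosen with earlier results of these data known. Named were all members, from each list its called genes or up to 4 non-members with the smallest p, and the 4 probe sets most like CDKN2C and TOP2A; other list genes were named after their values were seen. On simulated data of this size the fit recovered 6% of 50 probe sets changed 1.5-fold and 48% of those changed 2-fold; for 4-fold it was 92% and for 8-fold 100%. Alternatives were other pseudocounts, quantile normalization, median centring, other filters, no trend, weighted arrays, a block for replicate number, leaving out each animal, and averaging a gene's probe sets. Planned searches of promoter and protein sequences were not run.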

Additional observations from a re-analysis of the deposited data

Results flagged for a closer look

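Of 52 groups of 4 values examined for a sample far from the other 3, 5 stood out, where chance gives about 1 in 20. TOP2A was at 492 in YS replicate 2, above the other YS animals (340.2 to 357). CCNB1 was at 155 in YS replicate 4, below the other YS animals (255.6 to 272). MCM2 was at 187 in YS replicate 2, below the other YS animals (237 to 247). TFDP2 was at 30.1 in YS replicate 3, against 149 to 179 in the others. The median intensity of KNP replicate 4 was 169, against 152 to 155 on the other KNP arrays.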

How the results depend on the processing

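The 6 members kept their direction under every alternative run, 21 or 22 for each, and the 5 other than CDKN2C were called under none, with limma adjusted p from 0.0577 (TOP2A without KNP replicate 2) upward. CDKN2C kept its call under 7 alternatives and lost it under 14. The differences where it was lost were −2.25 with a pseudocount of 1, −2.16 with 4, −1.81 after median centring (adjusted p = 0.0580), −1.79 after quantile normalization (0.1002), and −1.89 with no filter (0.0841), without intensity trend (0.0744) and with the replicate block (0.123); the cause was not tested. With 1 animal left out its difference lay between −2.10 and −1.59. Leaving out 64 reporter probe sets as well, an alternative chosen after seeing the data, gave 61 calls higher and 85 lower and an adjusted p of 0.0449 for CDKN2C. With the lower 60% left out CDKN2C, CCNB1 and RRM2 were not tested. The labels give no pairing of the animals by replicate number. Same-numbered arrays had correlations of their deviations between −0.020 and 0.051, which cannot settle whether the animals were paired. With the block 6 probe sets were called higher and 2 lower. Over all probe sets the calls higher and lower were 10 and 4 after quantile normalization, 24 and 11 with no filter, 8 and 5 without intensity trend, and 38 lower after median centring; with 1 animal left out, 5 to 48 were higher and 3 to 81 lower. Of the list genes 1 was called lower as reported, and 0 to 1 with 1 animal left out. The count was 0 after quantile normalization, median centring, a pseudocount of 1, no filter, no trend or the block. With the lower 60% left out the 1 gene called was RFC1. List genes other than the members were not counted at the 4 further pseudocounts. The median of the replication list turned to 0.026 without YS replicate 3, and that of the RB and E2F list lay between −0.24 and 0.29. With 4 arrays a breed, a 2-fold change was recovered in 48% of simulated probe sets.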

Other observations

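The lists held 20 genes with a probe set too dim to be tested at the main filter, 11 of them genes of G2 and mitosis, with single values between 4.74 and 257. In the limma fit of all 23999 probe sets none of the 20 was called, and 15 had a lower and 5 a higher mean in KNP. The share with a lower mean was not counted over all 23999, so the 15 stand without it. At an unadjusted p under 0.05 in either direction, 3 of the 20 passed, beside 3160 of all 23999. The 3 were all lower in KNP, and the share of all 23999 that were lower at that bound was not counted. The median difference was −0.31 over the 20 and −0.066 over all 23999. The 3 were named after their values were seen. CDC20, which starts the exit from mitosis, was at 60.7, 101, 29.0 and 13.9 in KNP replicates 1 to 4 and at 77.2, 159, 257 and 118 in YS replicates 1 to 4 (log2 −1.41, SE 0.47, adjusted p = 0.241). DLGAP5, a spindle protein, showed −0.82 and ORC1, a subunit of the origin recognition complex, −0.99, with adjusted p of 0.368 and 0.326. CCNA2 (cyclin A2) and KIF20A, a kinesin of the dividing midzone, lay the other way, at 45.8 ± 18.6 against 27.8 ± 6.44 and 36.2 ± 36.2 against 14.3 ± 3.91 (SD, n = 4 per breed), both with overlap.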
